A study of Mus musculus with 6 samples.

Results

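The 8 mouse Smad genes (Smad1 to Smad7 and Smad9) and the 2 Smurf ubiquitin ligase genes (Smurf1 and Smurf2) were chosen by gene symbol. The choice did not use their values but was made with earlier results of these data known. All were looked up among the 56393 genes of a bulk RNA sequencing table. They are Smad1 (ENSMUSG00000031681, chromosome 8), Smad5 (ENSMUSG00000021540, chromosome 13), Smad9 (ENSMUSG00000027796, chromosome 3), Smad2 (ENSMUSG00000024563, chromosome 18), Smad3 (ENSMUSG00000032402, chromosome 9), Smad4 (ENSMUSG00000024515, chromosome 18), Smad6 (ENSMUSG00000036867, chromosome 9), Smad7 (ENSMUSG00000025880, chromosome 18), Smurf1 (ENSMUSG00000038780, chromosome 5) and Smurf2 (ENSMUSG00000018363, chromosome 11). All 10 were present and all 10 passed the filter on low counts. The libraries came from cultures that the labels call primary vascular smooth muscle cells of the mouse, a cell type that contracts the vessel wall, in serum-containing medium with no further treatment. In 3 libraries the cells were knocked out for Nono (KO), the gene of an RNA- and DNA-binding protein of nuclear paraspeckles, and in the other 3 they were wild type (WT). The question posed by the series, which concerns vascular calcification and the ligand gene Bmp2, is which genes differ between these genotypes. The sources used here do not state the strain, sex or age of the mice, how the knockout was made, or whether replicates were separate cultures or animals. The p-values therefore measure the spread between these libraries, which may be technical.

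Smads carry signals of the transforming growth factor beta (TGF-beta) superfamily from the cell surface to the nucleus. Ligand-bound receptor kinases phosphorylate the receptor-regulated Smads, which are Smad1, Smad5 and Smad9 below bone morphogenetic protein (BMP) receptors and Smad2 and Smad3 below TGF-beta and activin receptors. These join Smad4 and act on target genes, while Smad6 and Smad7 block the relay and Smurf ligases mark Smads and receptors for degradation. In vascular smooth muscle, the BMP branch is known for its part in osteogenic change and calcification, and the TGF-beta branch for contractile and matrix gene expression.

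Library totals ranged from 56529170 to 61670083 counts. Levels within a gene are given as CPM, counts scaled by library size and trimmed-mean (TMM) factors, and levels between genes as the deposited FPKM, which are per transcript length. Nono, the targeted gene, was at 523.1, 502.4 and 519.2 CPM in the WT libraries and 55.97, 54.79 and 51.09 CPM in the KO libraries, 9.54-fold lower (edgeR adjusted p = 1.63e-09). Bmp2, a ligand of the BMP branch, had 8 counts over the WT libraries and 7.11, 9.49 and 9.67 CPM in the KO libraries. Markers of cell types also differed between the genotypes. Higher and lower here mean an edgeR adjusted p under 0.05, which 69.3% of all tested genes reached. The summed level of 8 smooth muscle markers was 67.5 to 76.5 CPM in WT and 244.7 to 249 CPM in KO. Of the 8, 5 were higher and 2 lower, with Myh11 under 1 CPM in all 6 libraries and Myocd at 0 counts in KO. Acta2 rose from 16.4 to 161 CPM and Smtn from 47.8 to 58.1 CPM, and Acta2 and Smtn made up most of either sum. Des fell from 4.29 to 0.848 CPM. The 7 fibroblast markers summed to 872 to 1023 CPM in WT and 7206 to 7709 CPM in KO, with 6 higher, 0 lower and Lum and Thy1 at 0 counts in WT. The 4 Y-linked genes summed to 0 to 0.0795 CPM in WT and 149.9 to 163.3 CPM in KO. Their part in the results below was not tested, and since these levels split the libraries exactly as genotype does, the effects cannot be told apart. The 6 macrophage and leukocyte markers summed to 21.2 to 23.6 CPM in WT and 72.5 to 87.8 CPM in KO, with 3 higher and 1 lower of 4 tested. Cd14 rose from 12.4 to 74.5 CPM and Lyz2 fell from 8.54 to 0.213 CPM, with the defining markers Ptprc and Adgre1 at 0 counts in all 6 libraries. The 6 epithelial and mesothelial markers summed to 76.95 to 84.5 CPM in WT and 7.69 to 10.4 CPM in KO, with Epcam and Krt18 at 0 counts throughout. Of the 2 tested, 0 were higher and 2 lower. Krt19 fell from 59.3 to 8.39 CPM and Msln from 20.1 to 0.220 CPM. The 6 endothelial markers reached at most 3.62 CPM together, with 1 higher and 3 lower of 4 tested. The sums of the 5 pericyte markers overlapped (123.9 to 170.5 CPM in WT, 122.5 to 142.8 CPM in KO), but Rgs5 rose from 2.37 to 46.2 CPM and Cspg4 fell from 76.65 to 4.46 CPM.

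Between KO and WT, 4 of the 10 genes were higher (Smad1, Smad3, Smad4 and Smad5), 2 were lower (Smad7 and Smad9), and 4 did not pass the test (Smad2, Smad6, Smurf1 and Smurf2). Passing means an adjusted p under 0.05 in the quasi-likelihood test of edgeR, fitted over 18732 genes. The 6 calls, 60.0% of the genes, stand beside 69.3% of all tested genes, the 4 higher ones beside 35.1% and the 2 lower ones beside 34.2%, so these counts lie near the background and are no result about the members as a group. The CPM of the groups did not overlap in 6 of the 10 genes, against 75.5% of all tested genes, and the FPKM did not overlap in 8, against 74.1%. The median log2 fold change over the 10 was 0.06, and that of all tested genes 0.03. In bulk RNA, fewer cells of a type and less transcript per cell cannot be told apart. Of the 10 genes, 2 were called and differed by at least 2-fold (Smad5 and Smad9), beside 41.4% of all tested genes. Smad5 and Smad9 went in opposite directions.

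**Figure D1:**
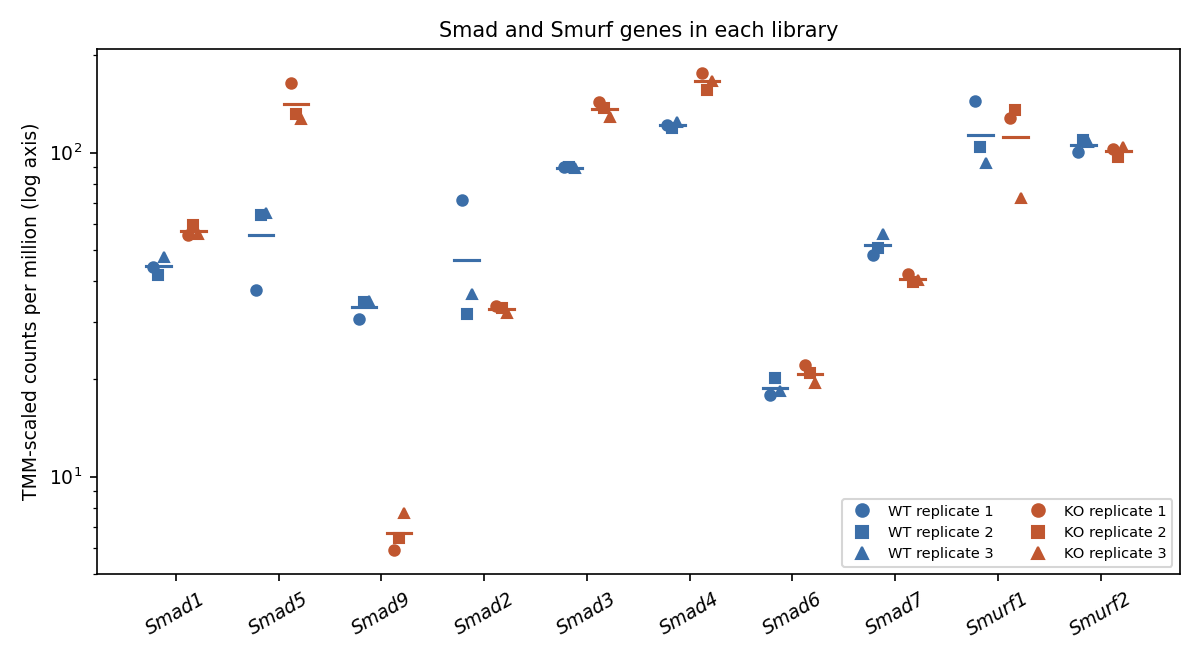
TMM-scaled CPM (log axis) of the 10 genes in each library, WT in blue and KO in orange, with marker shapes for replicates and a bar at each group mean. Smad9 lies between 5.92 and 7.70 CPM in KO and between 30.6 and 34.9 CPM in WT, and WT replicate 1 stands apart in Smad2 and Smad5.

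**Figure D2:**
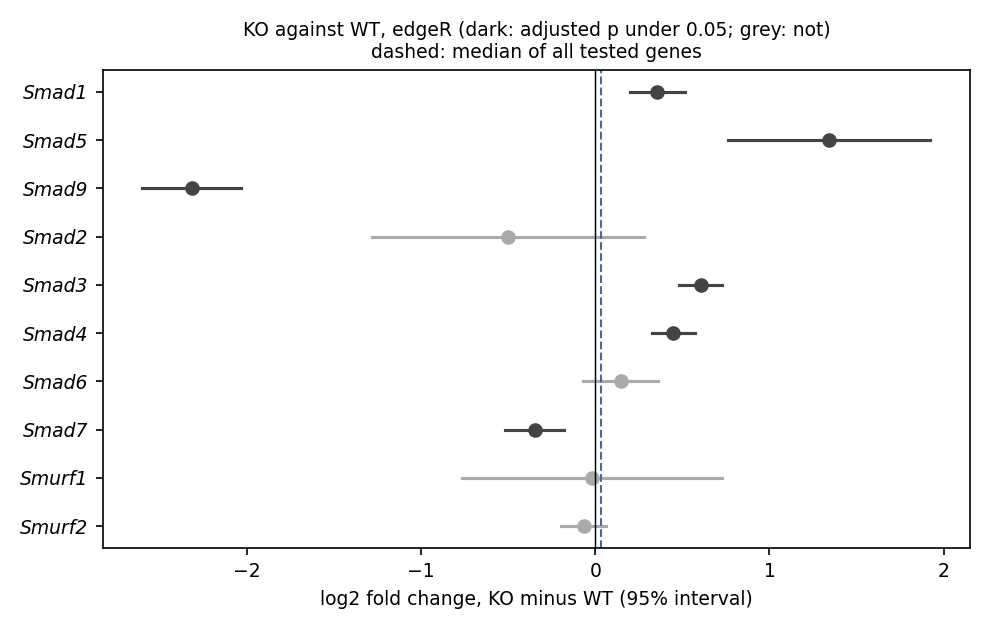
Log2 fold change of each gene, KO minus WT, with its 95% interval from edgeR. Dark points passed an adjusted p of 0.05, grey points did not, and the dashed line is the median of all tested genes (0.03). The intervals of Smad2 and Smurf1 are the widest of those that cross 0.

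The receptor-regulated Smads of the BMP branch moved apart. Smad9, which is also a target gene of BMP signalling, was at 30.6, 34.5 and 34.9 CPM in the WT libraries and at 5.92, 6.44 and 7.70 CPM in the KO libraries. The highest KO value was far below the lowest WT value. The gene fell 4.99-fold (log2 fold change -2.32, SE 0.12, edgeR adjusted p = 6.04e-07). Smad5 was at 37.7, 63.9 and 65.1 CPM in WT and at 164, 131 and 127 CPM in KO. WT replicate 1 was the low one of its group, and the groups stayed apart with and without it. Smad5 rose 2.53-fold (log2 fold change 1.34, SE 0.24, edgeR adjusted p = 0.00284). Leaving out that low WT library gave a log2 fold change of 1.13, which also passed. Smad1 was at 44.5, 42.0 and 47.6 CPM in WT and at 55.9, 59.7 and 56.1 CPM in KO, a smaller shift with no overlap of the groups. It rose 1.28-fold (log2 fold change 0.36 ± 0.07 SE, edgeR adjusted p = 0.00167).

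The promoters of the BMP-branch genes with the largest decrease and the largest increase, Smad9 and Smad5, are shown because these closely related genes went opposite ways. Each run is the 250 bases before the annotated start of the gene, 5′ to 3′ on the gene's strand, from RefSeq on build GRCm38.p6, which is not the build named for the counts (GRCm39). Capitals mark the motif GGCGCC, a GC-rich sequence bound by Smad1 and Smad5, and CAGAC or its reverse complement GTCTG, which hold the core letters of the box bound by Smad3 and Smad4.
Smad9 (chr3:54755332-54755581, + strand): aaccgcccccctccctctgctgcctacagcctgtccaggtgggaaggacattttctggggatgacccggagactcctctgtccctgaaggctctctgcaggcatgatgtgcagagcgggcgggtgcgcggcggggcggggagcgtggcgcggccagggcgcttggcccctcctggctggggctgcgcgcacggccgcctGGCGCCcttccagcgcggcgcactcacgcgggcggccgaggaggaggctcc
Smad5 (chr13:56702760-56703009, + strand, the most upstream of 3 annotated starts): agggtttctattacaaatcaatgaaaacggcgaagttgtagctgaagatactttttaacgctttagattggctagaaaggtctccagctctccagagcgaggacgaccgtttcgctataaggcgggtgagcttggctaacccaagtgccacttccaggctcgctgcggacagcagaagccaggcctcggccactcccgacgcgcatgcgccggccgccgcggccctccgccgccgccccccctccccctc
The Smad9 window held GGCGCC once and no CAGAC or GTCTG, and the Smad5 window held none of these. The window of the next Smad5 start (chr13:56702802-56703051) overlaps the printed one and held GGCGCC once, so this contrast depends on the start printed. RefSeq windows were matched for 7 of the 10 genes (Smad1, Smad3, Smad5, Smad6, Smad9, Smurf1 and Smurf2) and made 9 windows in all. GGCGCC was found in 3 of the 9, those of Smad9, Smurf2 and another Smad5 start, and in 9.59% of all 32851 windows in the RefSeq table. CAGAC or GTCTG was found in 3 of the 9, those of Smurf1, Smurf2 and the third Smad5 start, and in 42.2% of all windows. The Smad9 window had 73.2% G and C bases and the Smad5 window 60.0%. A match is a description of letters and not evidence of binding, and whether these shares differ from those of all windows was not tested.

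On the per-length scale these shifts changed which gene made up most of the BMP-branch transcript. Smad9 gave 20.8%, 20.8% and 19.6% of the summed FPKM of Smad1, Smad5 and Smad9 in the WT libraries and 2.38%, 2.71% and 3.44% in the KO libraries. Smad5 gave 26.8% to 33.8% in WT and 49.9% to 56.8% in KO. Smad1 gave 45.4% to 52.5% in WT and 40.8% to 46.6% in KO, and here the groups overlapped. The ratio of Smad9 to Smad1 plus Smad5 was 0.257 ± 0.011 (SD, n = 3) in WT and 0.0293 ± 0.0058 (SD, n = 3) in KO, an 8.86-fold difference (exact two-sided permutation test, p = 0.1, the smallest that 3 against 3 allows, and adjusted p = 0.125 over 5 ratios). The summed FPKM of the branch was 24.8 to 30.1 in WT and 34.9 to 38.5 in KO, so that the sum was higher in KO although Smad9 was lower.

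**Figure D3:**
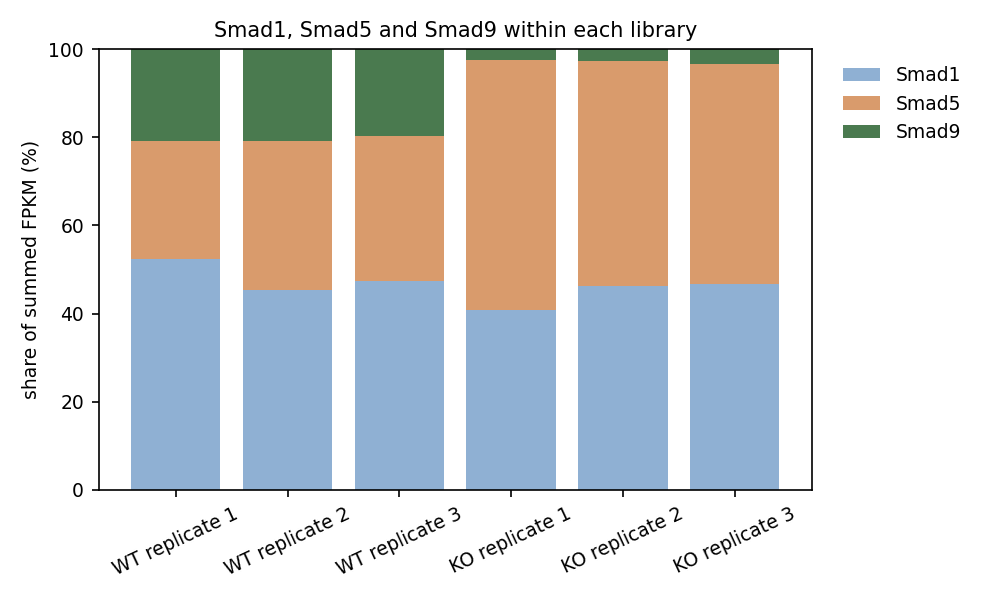
Share of the summed FPKM of Smad1, Smad5 and Smad9 (stacked to 100%) in each library. The Smad9 share is 19.6% to 20.8% in the 3 WT libraries and 2.38% to 3.44% in the 3 KO libraries, and the Smad5 share is larger in each KO library than in any WT library.

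In the TGF-beta branch, Smad3 rose and Smad2 gave no call. Smad3, the DNA-binding Smad of this branch, was at 90.0, 90.1 and 89.4 CPM in WT and at 143.5, 138 and 129 CPM in KO. The WT values lay within 1 CPM of each other and all KO values lay above them. The gene rose 1.52-fold (log2 fold change 0.61 ± 0.05 SE, edgeR adjusted p = 1.4e-05). Smad2, whose main protein form does not bind DNA directly, had 4504, 1898 and 2302 counts in WT and 1969, 1819 and 1881 counts in KO, or 71.4, 31.6 and 36.6 CPM against 33.6, 33.1 and 31.9 CPM. WT replicate 1 was 1.95-fold above the nearest WT library, and the CPM of the other WT libraries overlapped those of KO. The fit gave a log2 fold change of -0.50 with a 95% interval of -1.28 to 0.28 (edgeR adjusted p = 0.206), and without WT replicate 1 it gave -0.05 (edgeR adjusted p = 0.664).

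The deposited FPKM of Smad2 did not show that high library. WT replicates 1 to 3 had 10.8, 9.41 and 11.6 FPKM, and KO replicates 1 to 3 had 8.98, 8.20 and 9.25 FPKM, with all KO values below the lowest WT value. Limma on log2(FPKM + 0.1) gave a log2 difference of -0.26 (adjusted p = 0.0725), and limma on log2(FPKM + 1) gave -0.24 (adjusted p = 0.0478). The CPM of total counts divided by the FPKM has the unit of a length in kilobases. For Smad2 it was 6.84 kb in WT replicate 1 and 3.28 to 3.87 kb in the other libraries, a 2.09-fold range. GENCODE M21 lists 7 Smad2 transcripts of 0.614 to 8.09 kb. The cause of the difference between counts and FPKM was not tested. Among the other 9 genes the quotient ranged by at most 1.21-fold over the libraries, in Smad5, and by 1.004-fold in Smad9, for which 1 transcript is listed.

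**Figure D4:**
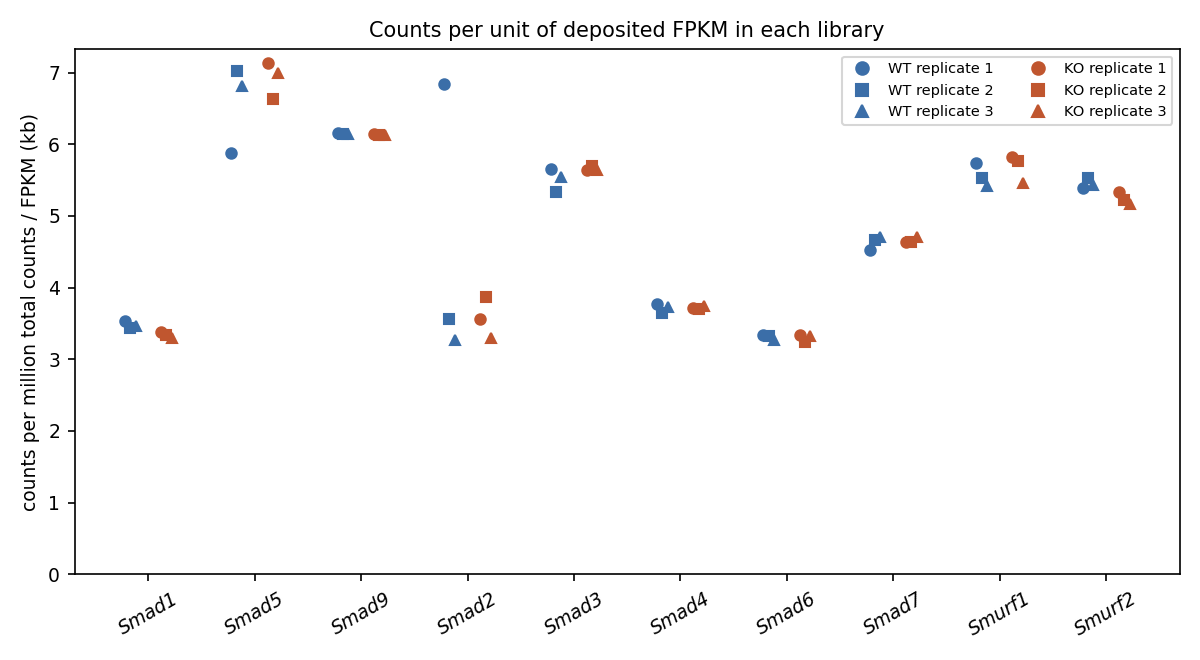
CPM of total counts divided by the deposited FPKM, in kilobases, for each gene and library. The value of Smad2 in WT replicate 1 (6.84 kb) lies apart from its other libraries (3.28 to 3.87 kb), and Smad5 has its lowest value in the same library.

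The ratio of Smad3 to Smad2 in FPKM was 1.53, 1.90 and 1.44 in WT and 2.69, 2.83 and 2.36 in KO. All KO ratios lay above the WT ratios, by 1.62-fold on average (exact two-sided permutation test, p = 0.1, adjusted p = 0.125). The share of Smad2 in the summed FPKM of the 5 receptor-regulated Smads was 16.8% to 20.75% in WT and 11.97% to 14.0% in KO, and that of Smad3 was 28.7% to 32.0% in WT and 33.1% to 33.8% in KO.

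Smad4, the partner shared by both branches, was the member with the highest FPKM in either genotype and was higher in KO. It was at 121.5, 119.5 and 124 CPM in WT and at 176, 156 and 166 CPM in KO. The groups did not overlap, and the lowest KO library was KO replicate 2. The gene rose 1.36-fold (log2 fold change 0.45 ± 0.05 SE, edgeR adjusted p = 0.000106). Its FPKM was 34.3 ± 0.71 in WT and 42.6 ± 2.23 in KO (SD, n = 3 each).

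Of the inhibitory Smads, Smad7 fell and Smad6 gave no call. Smad7, which competes with receptor-regulated Smads for the receptors and brings Smurf ligases to them, was at 48.4, 50.9 and 56.2 CPM in WT and at 42.2, 39.7 and 40.3 CPM in KO. The KO values lay close together and below all WT values. It fell 1.27-fold (log2 fold change -0.35 ± 0.07 SE, edgeR adjusted p = 0.00285). Smad6, which acts mainly on the BMP branch, was at 17.9, 20.1 and 18.4 CPM in WT and at 22.1, 20.9 and 19.4 CPM in KO. The groups overlapped, and the log2 fold change was 0.15 with a 95% interval of -0.07 to 0.36 (edgeR adjusted p = 0.196). The FPKM ratio of Smad7 to Smad6 was 1.999, 1.804 and 2.12 in WT and 1.37, 1.33 and 1.47 in KO. The ratio of Smad6 plus Smad7 to the 5 receptor-regulated Smads was 0.319, 0.322 and 0.312 in WT and 0.208, 0.210 and 0.209 in KO, a 1.52-fold lower value in KO with little spread in either group. Both ratios separated the groups (exact two-sided permutation test, p = 0.1 each, adjusted p = 0.125).

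Neither Smurf gene passed the test, but the precision differed. Smurf2 was at 100.2, 109 and 108 CPM in WT and at 102.5, 96.6 and 104 CPM in KO. The groups overlapped, and the log2 fold change of -0.07 had a 95% interval of -0.20 to 0.06 (edgeR adjusted p = 0.318). With scaling by library totals it was -0.20 (edgeR adjusted p = 0.0157), a scaling that also moved the median of all tested genes from 0.03 to -0.10. The FPKM of Smurf2 did not overlap between the groups by a narrow margin, with 19.26 as the lowest WT value and 19.21 as the highest KO value. Smurf1 was at 144, 104 and 93.0 CPM in WT and at 128, 136 and 72.3 CPM in KO. The highest library was a WT one and the lowest a KO one, and the values between them mixed. The log2 fold change was -0.02 with a 95% interval of -0.77 to 0.73 (edgeR adjusted p = 0.955). It was 0.19 without WT replicate 1 and 0.22 without KO replicate 3, and neither passed. The FPKM ratio of Smurf1 to Smurf2 ran from 0.864 to 1.35 in WT and from 0.659 to 1.27 in KO (exact two-sided permutation test, p = 0.9, adjusted p = 0.9).

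Per transcript length, the order of the 10 genes differed between the genotypes. In WT the mean FPKM fell from Smad4 (34.3) through Smurf1 (21.3), Smurf2 (20.3), Smad3 (17.1), Smad1 (13.4), Smad7 (11.7), Smad2 (10.6), Smad5 (8.75) and Smad6 (5.94) to Smad9 (5.67). The library ranges of neighbours overlapped between Smurf1 and Smurf2, Smad7 and Smad2, Smad2 and Smad5, and Smad6 and Smad9. In KO the order was Smad4 (42.6), Smad3 (23.1), Smad5 (19.4), Smurf1 (18.7), Smurf2 (18.4), Smad1 (16.4), Smad2 (8.81), Smad7 (8.35), Smad6 (6.02) and Smad9 (1.04). The ranges overlapped between Smad3, Smad5, Smurf1 and Smurf2, each with the next, and between Smad2 and Smad7. Smad5 thus moved from the eighth place to the third, and Smad9 held the last place in both, in KO below all libraries of Smad6.

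Genes of the receptors upstream of the Smads differed in both directions. Of 10 tested type I and type II receptor genes, 6 were higher and 2 lower in KO, with a median log2 fold change of 0.28, beside 69.3% called and a median of 0.03 over all tested genes. Tgfbr2, the TGF-beta type II receptor, rose from 39.8 ± 2.31 to 264 ± 7.81 CPM (SD, n = 3 each), and Bmpr2, the BMP type II receptor, from 105.9 to 234 CPM. Acvrl1, a type I receptor for BMP9 and BMP10 that signals to Smad1 and Smad5, rose from 0.502 to 9.18 CPM. Acvr2a, an activin type II receptor, fell from 33.2 to 18.6 CPM, and Amhr2, the anti-Müllerian hormone receptor, from 2.33 to 0.170 CPM. Tgfbr1, the partner of Tgfbr2, was at 85.8 ± 7.99 and 97.1 ± 6.90 CPM (edgeR adjusted p = 0.089), and Acvr1, a BMP type I receptor, at 49.6 ± 6.63 and 47.4 ± 4.41 CPM (edgeR adjusted p = 0.61). Bmpr1b and Acvr1c were removed by the low-count filter. The lists here and below leave out the Smad and Smurf genes, and Bambi, Skil, Tgif1, Pmepa1 and Ldlrad4 stand on more than 1 of them.

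The Smurf genes belong to the Nedd4 family of HECT ligases, and whether they differed from its other members was not tested. Of 6 tested relatives, 4 were higher and 1 lower in KO (83.3% called, beside 69.3% of all tested genes). Their median log2 fold change was 1.07. Nedd4, the founding member, rose from 579 ± 12.04 to 1125 ± 4.72 CPM (SD, n = 3 each). Nedd4l, which acts on Smad2 and Smad3, rose 2.59-fold, Wwp2 2.29-fold and Hecw2 from 0.409 to 21.8 CPM. Wwp1 fell from 74.0 to 46.0 CPM. Itch was at 109.9 and 115.8 CPM and did not pass (edgeR adjusted p = 0.241).

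Of 16 other ubiquitin regulators of Smads and their receptors, 6 were higher and 9 lower in KO. This was 93.8% called, beside 69.3% of all tested genes, and the median log2 fold change was -0.33. From the deposited FPKM 3 were higher and 9 lower. Stambpl1, a deubiquitinase of the AMSH family, fell 3.42-fold, from 82.4 ± 4.15 to 24.1 ± 1.36 CPM. Rnf11, a small RING protein that binds Smurf2, fell from 184.8 to 91.1 CPM, Trim33, a ligase that acts on Smad4, from 129 to 62.8 CPM, and Otub1, a deubiquitinase that binds phosphorylated Smad2 and Smad3, from 139.6 to 71.0 CPM. Usp4, a deubiquitinase of TGF-beta receptors, was at 76.5 and 82.5 CPM and did not pass (edgeR adjusted p = 0.0955).

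Of 22 tested nuclear corepressors, coactivators and partners of Smads, 10 were higher and 11 lower (95.5% called, beside 69.3% of all tested genes). Their median log2 fold change was -0.15. Atf3, a stress-induced partner of Smad3, fell from 161 ± 5.00 to 1.75 ± 0.69 CPM and Runx3, a Runt-domain partner of receptor-regulated Smads, from 114.8 to 9.87 CPM. The acetyltransferase gene Crebbp fell 1.56-fold and the deacetylase gene Hdac1 1.45-fold. The corepressor gene Ski was at 186 ± 7.84 and 176 ± 5.68 CPM and did not pass (edgeR adjusted p = 0.169).

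Of 23 tested anchors, phosphatases, receptor-level modulators and transport factors, 10 were higher and 7 lower (73.9% called, beside 69.3% of all tested genes). Their median log2 fold change was 0.18. Dab2, an endocytic adaptor that links receptors to Smads, rose from 93.2 ± 5.77 to 234 ± 8.38 CPM, and Ldlrad4, a membrane protein that holds Smad2 and Smad3 back from the receptor, 4.99-fold. Eid2, an inhibitor of Smad signalling, had 0 counts in the WT libraries and a mean of 19.4 ± 1.39 CPM in KO. Taking 3 counts over the whole WT group as the floor, it was at least 1203-fold higher, a bound that covers counting error only. Xpo4, which exports Smad3 from the nucleus, fell 3.05-fold. Ppm1a, a phosphatase of receptor-regulated Smads, was at 168.5 and 164 CPM (edgeR adjusted p = 0.496), and Fkbp1a, which holds type I receptors inactive, at 195.6 and 156 CPM with KO replicate 3 apart at 105.5 CPM (edgeR adjusted p = 0.218).

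Target genes of the branches, counted without the Smads among them, had medians of opposite sign. Of 10 tested BMP targets, 2 were higher and 5 lower (70.0% called, near the 69.3% of all tested genes). Their median log2 fold change was -0.74. Id1 and Id2, inhibitors of differentiation, fell 1.89-fold and 1.63-fold, and the repressor Hes1 from 29.2 to 2.53 CPM. Bambi, a decoy receptor, rose from 1.001 to 5.50 CPM, and Msx2, an osteogenic homeobox gene with 0 counts in WT, reached 2.19 CPM in KO (by the same floor at least 135.6-fold higher). With genes at 0 counts in a group set to that bound, each list median was the same to 2 decimals. Id3 was at 181.5 and 187 CPM (edgeR adjusted p = 0.534) and Atoh8 at 55.8 and 57.6 CPM (edgeR adjusted p = 0.522). Of 15 tested TGF-beta targets, 12 were higher and 3 lower (100% called, beside 69.3% of all tested genes). Their median log2 fold change was 2.32. Tgfbi rose from 1.89 to 793 CPM, Col1a2 from 552 to 6443 CPM, Cdkn1a from 51.9 to 364 CPM and Acta2 from 16.4 to 161 CPM. Among the lower ones, Skil, a corepressor induced by the pathway, fell from 55.9 to 14.5 CPM and Cdkn2b, a cell cycle inhibitor, from 49.1 to 24.4 CPM. Col1a1 is also a fibroblast marker and Acta2 and Tagln are smooth muscle markers, so this count moved with the marker sums given above, and their part in it was not tested.

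**Figure D5:**
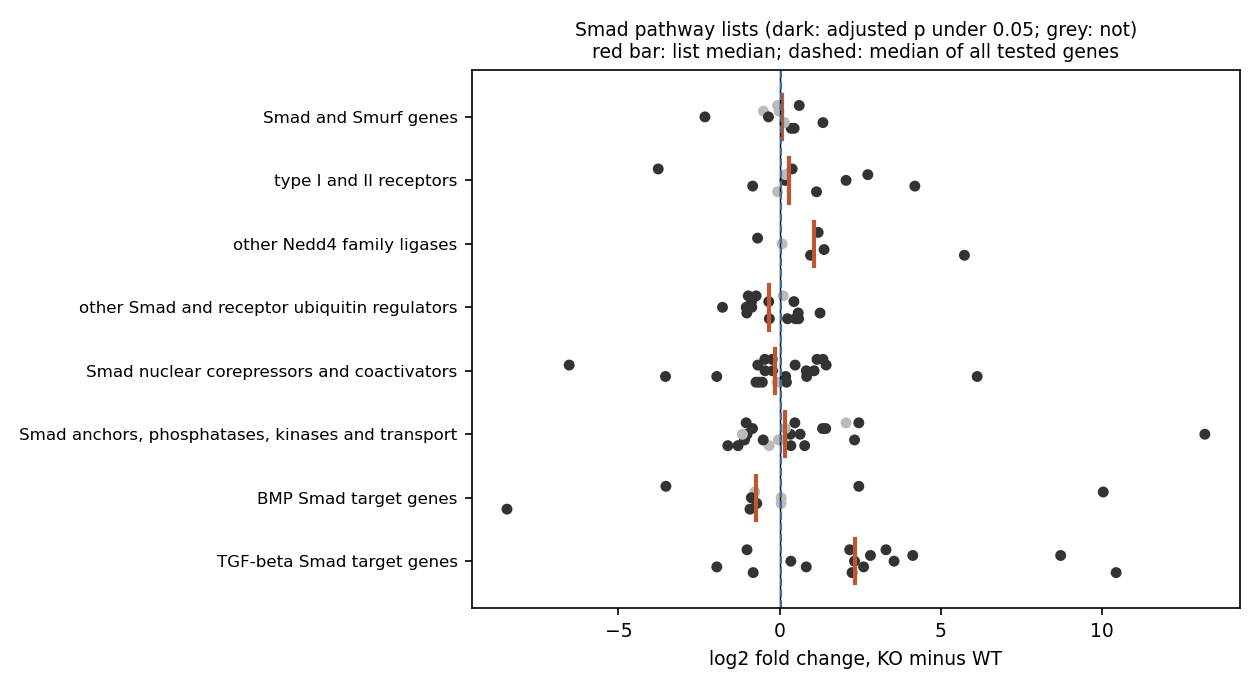
Log2 fold change, KO minus WT, of the tested genes of each Smad pathway list (dark: adjusted p under 0.05, grey: not), with the list median in red and the median of all tested genes dashed. The Smad and Smurf genes lie within 2.32 of 0. Points of genes with 0 counts in a group (Eid2, Msx2, Hey1) are fitted values and not measured folds, and the medians lie far from them.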

How the data were processed

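Gene counts and FPKM were deposited by the authors as 1 table with a column of each per sample, per the file headers. The FPKM were normalized by the authors. CASAVA 1.8, HISAT2, SAMtools 1.3.1 and edgeR are named with build GRCm39 per the submitters' processing notes, without their roles. No read counter or strand setting is given in those sources, nor how the FPKM were computed. Of the members, Smad5 and Smurf2 share exon positions with small RNA genes in GENCODE M21, which reached at most 0.127 CPM. Symbols were matched by Ensembl ID for 55394 of 56393 genes (98.23%). Library totals set the counting precision.

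Groups came from the sample titles. Counts were filtered with filterByExpr (18732 genes kept), scaled by TMM and fitted in edgeR 4.0.16 under R 4.3.3 (robust glmQLFit, then glmQLFTest), KO against WT over 6 libraries with no covariates, with Benjamini-Hochberg adjustment over all tested genes. Standard errors are the log2 fold change divided by the root of the F statistic. Ratios of FPKM used the exact two-sided permutation test (SciPy 1.17.1). The edgeR fit, and not the permutation test, was tried on simulated counts. Far fewer genes were changed there than were called here, so that trial does not vouch for the calls. Replicates of a group differed beyond sampling noise (chi-square of 22.5 to 34.7 for each degree of freedom). Alternatives were DESeq2 1.42.0, voom and limma 3.58.1 on log2 FPKM, other scalings, filters and thresholds, a replicate block, and leaving out each library. Outside the members, the text names, for each list, up to 4 called genes of at least 5 CPM by lowest adjusted p, and up to 2 uncalled ones by highest CPM. Wwp1, Amhr2, Msx2, Skil, Cdkn2b, Rgs5, Cspg4, Cd14, Lyz2, Krt19, Msln, Smtn and Des, and the genes of the closing section, were picked with their values in view. The members and lists were chosen with earlier results of these data known. The values of 1 gene of the TGF-beta target list are not reported here.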

Additional observations from a re-analysis of the deposited data

How the results depend on the processing

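The 6 called members (Smad1, Smad3, Smad4, Smad5, Smad7 and Smad9) had the same direction and an adjusted p under 0.05 in each of the 15 alternative fits, and at an adjusted p of 0.01 the counts were again 4 higher and 2 lower. With scaling by library totals 3 members were lower, Smurf2 being the addition, and from limma on log2(FPKM + 1) also 3, Smad2 being the addition. Leaving out 1 library at a time kept 4 higher and 2 lower members. The sign of Smurf1 turned with a filter of 1 CPM in 3 libraries (0.000664), without WT replicate 1 (0.19) and without KO replicate 3 (0.22). The log2 ratio of Smurf1 to Smurf2, -0.07 in FPKM, was 0.0173 in CPM and ran from -0.25 to 0.22 with 1 library left out. In CPM the log2 ratio of Smad3 to Smad2 was 1.01 and that of Smad6 plus Smad7 to the receptor-regulated Smads -0.67, against 0.70 and -0.60 in FPKM. The ubiquitin regulators had 3 higher members in both FPKM fits (pseudocounts 0.1 and 1).

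Of the other named genes, 5 that had not passed turned sign and did not pass there either. With scaling by library totals the log2 fold change was -0.084 for Atoh8, -0.086 for Id3, -0.0545 for Itch and -0.0202 for Usp4. In the FPKM fits with pseudocounts of 0.1 and 1 it was -0.0873 and -0.0838 for Atoh8, -0.0551 and -0.0547 for Id3, -0.0697 and -0.0673 for Itch, and -0.0429 and -0.0413 for Usp4. With 1 library left out, Smurf1 ran from -0.179 to 0.216, Acvr1 from -0.143 to 0.0569 (without WT replicate 3) and Id3 from -0.00187 (without WT replicate 1) to 0.0863. The replicate numbers of WT and KO samples did not pair them (correlation of deviations -0.0237, 0.018 and -0.00904), and with the replicate block 4 members were higher and 2 lower, while 12233 genes were called in place of 12980. With library totals as scaling, Ski (-0.21, edgeR adjusted p = 0.00324) and Ppm1a (-0.17, edgeR adjusted p = 0.0135) passed as lower, Ski also from limma on log2(FPKM + 1) (-0.198, adjusted p = 0.0238). Usp4 passed as higher with the filter of 1 CPM (0.13, edgeR adjusted p = 0.044), as did Tgfbr1 without KO replicate 1 (0.23, edgeR adjusted p = 0.0474). The member with the fewest counts, Smad9 in KO, had 1155 over its 3 libraries, and the number of libraries limits the precision.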

Other observations

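Several genes of the Smad pathway had 1 library apart from the other 2 of its group, by at least 1.5-fold where those 2 lay within 1.2-fold of each other, limits chosen after seeing the data. Of 94 Smad, Smurf and pathway genes of at least 10 CPM, 8 met this (8.51%). Among all 10146 genes of at least 10 CPM, 488 met it (4.81%), and the difference was not tested. The library was KO replicate 3 in Smurf1, Cav1 and Fkbp1a, WT replicate 1 in Smad2 and Smad5, WT replicate 2 in Gsk3b and Ltbp2, and WT replicate 3 in Ctdsp2. Ltbp2, a gene of a TGF-beta binding protein of the matrix, reached 10 CPM only in KO, and its WT values of 0.887, 1.35 and 0.875 CPM were low. Cav1, the gene of the caveolar protein caveolin-1, was at 251 CPM in KO replicate 3 and at 27.1 and 31.0 CPM in the other KO libraries. Gsk3b, a kinase that phosphorylates the Smad linker, was at 171 CPM in WT replicate 2 and at 64.1 and 73.4 CPM in the other WT libraries, and its log2 fold change of -1.16 (edgeR adjusted p = 0.0596) was -0.57 without that library (edgeR adjusted p = 0.00641). Ctdsp2, a small phosphatase of Smads, was at 178 CPM in WT replicate 3 and at 69.6 and 63.1 CPM in the others, and its log2 fold change of 1.43 (edgeR adjusted p = 0.0448) was 2.08 without that library, where it also passed. The call was lost in 7 other alternative fits, with log2 fold changes of 1.17 to 1.49. By the same limits the deposited FPKM set the same library apart in 6 of the 8 genes, with Smad2 and Smad5 as the exceptions. For Smad2, WT replicate 1 (10.8 FPKM) lay between the other WT libraries (9.41 and 11.6 FPKM). For Smad5 it was still the lowest (6.64 against 9.66 and 9.94 FPKM), by less than 1.5-fold.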
